A study of Mus musculus with 13 samples.

Results

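CTCF and RAD21 peak lists from the limbs of wild-type mouse embryos were set against each other across the genome. The CTCF list held 43533 peaks and the RAD21 list 33707, which is 77240 of the 457888 peaks in the 11 peak lists of the series. Both came from pooled forelimbs and hindlimbs of wild-type B6CBAF1 embryos at E12.5, by ChIP-seq with an anti-CTCF antibody (Active Motif) or an anti-RAD21 antibody (abcam), and the labels state that wild-type embryos came from crosses of heterozygous HoxD mutants. The other lists used below, also of E12.5, were CTCF, RAD21 and SMC1 of wild-type CD1 distal forelimb, CTCF of wild-type CD1 proximal forelimb, and lists of B6CBAF1 homozygous HoxD deletions. The deletion lists were CTCF of delHoxd(8-13)d11lac, delHoxd(1-13)d9lac and delHoxd(attP-rel5)d9lac whole limbs, CTCF of delHoxd(8-13)rXII forelimbs and RAD21 of delHoxd(8-13)rXII whole limbs. CTCF chromatin was fixed for 10 min, except that no time is given for the delHoxd(8-13)rXII forelimbs, which were profiled by ChIPmentation. RAD21 chromatin was fixed for 10 or 25 min, and the labels do not say which holds for this library. Each protein had 1 library, so no difference was tested, and each 95% interval below (Wilson) covers counting error only. Peaks that shared at least 1 bp formed 22354 joint sites. The remaining 21119 CTCF peaks are called CTCF-only and the remaining 11314 RAD21 peaks RAD21-only. A site in neither list may still be bound, because a peak is listed only where its enrichment passed a q of 0.05, and bulk limb tissue does not show which cells carry a peak.

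CTCF, a protein of many zinc fingers, recognises an asymmetric DNA motif. RAD21 is the kleisin subunit that closes the ring of cohesin, together with the SMC1 and SMC3 subunits. Cohesin extrudes chromatin loops and is halted by CTCF bound with its N terminus towards the arriving ring, which lies on the 3′ side of the motif as its letters are printed here. In the developing limb such loops frame the landscapes that hold enhancers and their target genes, the HoxD cluster among them.

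The sequences that carry the comparison differ in kind between the classes. At CTCF-only and joint sites they are CTCF motifs, shown here for 3 of the 4 strongest sites of each class near a gene start, read on the motif strand from the mouse genome (GRCm38.p6), with the 19 bases of the match in capitals. The CTCF-only sites lie at the starts of Kifc1 (chr17:33890932-33890980, minus strand), Hnrnpdl (chr5:100038979-100039027, minus strand) and Psmd6 (chr14:14120996-14121044, minus strand).
Kifc1: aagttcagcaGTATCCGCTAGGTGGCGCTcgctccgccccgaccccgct
Hnrnpdl: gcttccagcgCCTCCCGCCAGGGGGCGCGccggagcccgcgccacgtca
Psmd6: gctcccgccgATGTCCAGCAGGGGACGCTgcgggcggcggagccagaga
The joint sites lie at chr1:88277681-88277729 (minus strand) before Hjurp, at chr8:70629873-70629921 (minus strand) in a coding exon of Gdf15 and at chr5:24530179-24530227 (minus strand) upstream of Gbx1.
Hjurp: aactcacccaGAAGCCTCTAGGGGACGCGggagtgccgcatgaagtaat
Gdf15: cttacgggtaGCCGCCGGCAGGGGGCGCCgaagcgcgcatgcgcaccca
Gbx1: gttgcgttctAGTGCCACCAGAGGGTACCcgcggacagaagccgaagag
The match scores were 19, 16.78 and 17.72 bits at these CTCF-only sites and 11.62, 21.28 and 17.05 bits at the joint ones, so the ranges overlapped.

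At 5 of the 8 strongest RAD21-only sites near a gene start a tRNA gene lay under the summit. The 3 strongest of these are shown with the RefSeq tRNA gene in capitals, on its own strand, and 10 bases on either side. They lie at chr3:30601260-30601352 (plus strand, a valine tRNA before Mynn), chr2:119046740-119046841 (minus strand, a serine tRNA before Knl1) and chr14:54517686-54517778 (plus strand, an arginine tRNA before Prmt5).
n-TVaac8: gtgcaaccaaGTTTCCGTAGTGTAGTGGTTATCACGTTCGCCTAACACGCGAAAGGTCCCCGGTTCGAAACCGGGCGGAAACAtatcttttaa
n-TSgct7: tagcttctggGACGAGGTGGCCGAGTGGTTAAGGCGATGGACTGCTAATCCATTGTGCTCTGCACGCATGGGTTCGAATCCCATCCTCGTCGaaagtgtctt
n-TRacg6: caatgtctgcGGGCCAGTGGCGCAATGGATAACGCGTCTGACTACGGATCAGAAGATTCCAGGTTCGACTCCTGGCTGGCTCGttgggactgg
tRNA genes are transcribed by RNA polymerase III from promoters inside the gene. TFIIIC binds the downstream one, the B box, whose letters GTTCGANNC stand near the 3′ end of all 3.

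About as many CTCF peaks had RAD21 as did not. Of the 43533 CTCF peaks, 51.5% (95% interval 51.0 to 52.0) overlapped a RAD21 peak, and of the 33707 RAD21 peaks, 66.4% (65.9 to 66.9) overlapped a CTCF peak. CTCF peaks covered 0.522% of the chromosomes and RAD21 peaks 0.424%. Few sites depended on the rule of overlap: an overlapping pair shared a median of 309 bp, 39 pairs shared 50 bp or less, and 27 CTCF-only and 28 RAD21-only peaks lay within 50 bp of the other list without touching it. A RAD21 peak lay within 1 kb of 4.27% of CTCF-only peaks, and a CTCF peak within 1 kb of 5.68% of RAD21-only peaks.

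The joint share climbed with the strength of the peak in both lists. Strength is given as the −log10 q of the strongest summit, as deposited, and was ranked within a list only, since read depth is unknown. From the weakest to the strongest decile of the CTCF list, 11.6%, 16.0%, 22.4%, 31.6%, 42.5%, 56.7%, 71.4%, 82.2%, 88.2% and 92.4% of peaks had RAD21. Across the deciles of the RAD21 list, 8.48%, 16.5%, 31.5%, 54.7%, 72.9%, 88.5%, 95%, 97.6%, 99.3% and 99.9% of peaks had CTCF. Both series climb at every step, and the RAD21 list ends with almost no site that lacks CTCF while the CTCF list ends with 329 strong peaks that lack RAD21. The median −log10 q was 7.73 at CTCF-only peaks and 35.9 at joint CTCF peaks. It was 3.88 at RAD21-only peaks and 29.4 at joint RAD21 peaks. Over the 22414 joint CTCF peaks the 2 strengths were moderately related (Spearman 0.46, Pearson 0.47 on log10 values, as a description over sites that share base composition, mappability and the same 2 libraries).

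**Figure D1:**
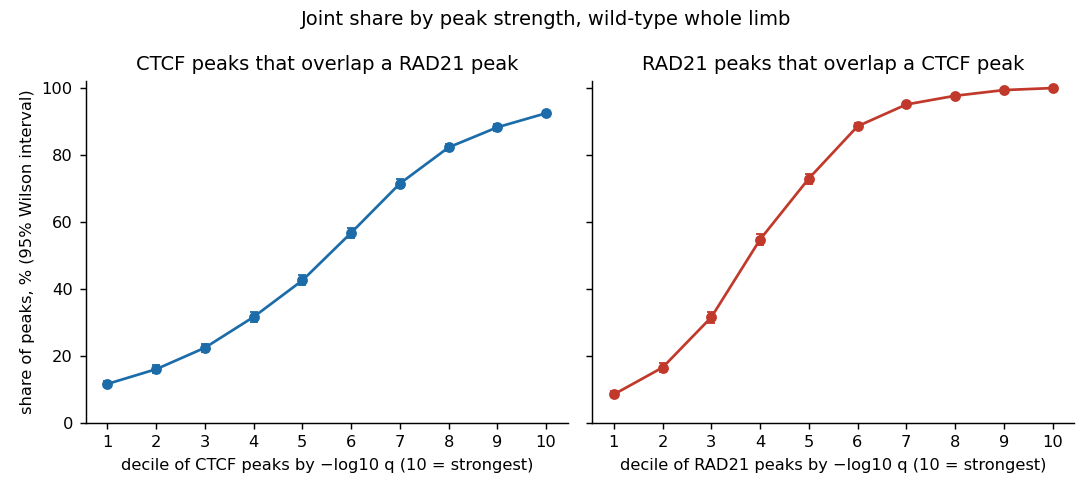
Share of peaks (%, with 95% Wilson interval) that overlap a peak of the other protein, by decile of −log10 q within the list, CTCF list left and RAD21 list right. The share runs from 11.6% to 92.4% in CTCF peaks and from 8.48% to 99.9% in RAD21 peaks.

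The strength of one protein did not fix that of the other at single sites. The joint peak before Hjurp, which encodes the chaperone of the centromeric histone CENP-A, had a −log10 q of 229 for CTCF and 36.5 for RAD21. The peak before Mid1, a ubiquitin ligase gene on the X chromosome, had 228 for CTCF and 9.34 for RAD21. Gdf15, a stress-induced hormone gene, had 209 for CTCF and 17.8 for RAD21. Gbx1, a homeobox gene, had 205 for CTCF and 37.0 for RAD21. Erlin2, a gene of the endoplasmic reticulum, had 191 for CTCF and 152 for RAD21, so CTCF peaks of 187 to 229 at these genes stood beside RAD21 peaks of 9.34 to 152. H2-DMa, an antigen-processing gene, had 187 for CTCF and 28.5 for RAD21, and Clcn4, a chloride transporter gene, had 194 for CTCF and 15.8 for RAD21. The 5 strongest joint sites over 50 kb from a protein-coding TSS, nearest to Tmem196, Fgf14, Rab10, Asmt and Wls, had 256 to 304 for CTCF and 161 to 293 for RAD21. All 5 were in soft-masked repeat sequence without a CTCF motif, and so was the joint site near Tcstv3 (191 for CTCF and 164 for RAD21). Each of them was called in all 9 other lists, SMC1 included, and whether reads of many repeat copies pile up there was not tested.

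RAD21 summits mostly lay to the 3′ side of CTCF summits at joint sites with a motif. Over all 22414 pairs the signed distance, CTCF summit minus RAD21 summit, had a median of 0 bp (quartiles −16 and 17), and 91.9% of summits were within 50 bp of each other. Split by motif strand, the median was −12 bp at 9985 plus-strand motifs and 12 bp at 10119 minus-strand motifs. With every motif turned to 1 direction, the median was −12 bp (quartiles −25 and 0, interval of the median −13 to −12), so the RAD21 summit was the more 3′ at 15041 of 20104 sites (74.8%), the more 5′ at 4724 (23.5%) and level at 339. Relative to the motif centre, the CTCF summit had a median of 8 bp (quartiles −1 and 18) and the RAD21 summit a median of 21 bp (quartiles 11 and 31). The motif had been searched within 50 bp of the CTCF summit, which bounds the CTCF distances and not those of RAD21.

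**Figure D2:**
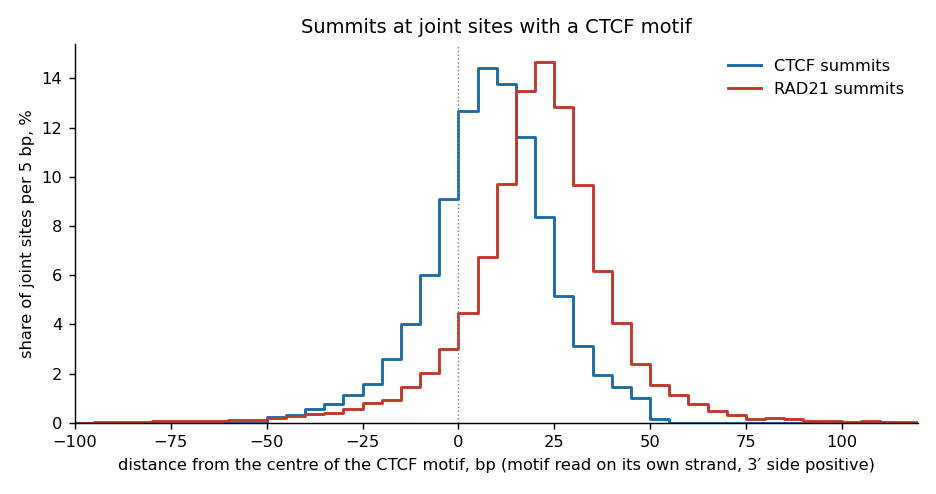
Position of CTCF and RAD21 summits (share of joint sites per 5 bp, %) relative to the centre of the CTCF motif in bp, motif read on its own strand with the 3′ side positive, at the 20104 joint sites with a motif. The RAD21 curve (median 21 bp) lies to the 3′ side of the CTCF curve (median 8 bp).

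The offset was sharper at strong RAD21 peaks. In the strongest decile of the RAD21 list the RAD21 summit was the more 3′ at 85.8% of 3199 sites with a motif. Over all 3372 pairs of this decile, with or without a motif, the median distance between summits, whatever its sign, was 14 bp. In the weakest decile the share was 50.0% of 202 sites with a motif. The median distance was 45 bp over all 283 pairs of that decile. Joint sites within 1 kb of a protein-coding transcription start (TSS) had a turned median of −11 bp, with RAD21 the more 3′ at 68.9% of 1771 sites. Joint sites further away had −12 bp, with 75.4% of 18333. Sites such as Mid1 (CTCF 14 bp and RAD21 44 bp from the motif centre) followed the common order, while Gdf15 (CTCF −10 bp and RAD21 −32 bp) had the reverse one.

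CTCF-only sites carried the motif less often than joint sites and more often than RAD21-only sites. A match within 50 bp of the summit, at a level that 5% of 154480 control windows passed, was present at 70.9% (70.3 to 71.5) of CTCF-only peaks, 89.7% (89.3 to 90.1) of joint CTCF peaks and 15% (14.3 to 15.6) of RAD21-only peaks. Among peaks with a −log10 q of 10 or more in each list the RAD21-only share was 56.0%, and that set holds stronger RAD21 peaks and also those over weaker CTCF peaks. At like CTCF strength the shares were close from decile 1 to decile 5, with 35.3% of CTCF-only and 35.0% of joint peaks in decile 1 and 86.3% of CTCF-only and 86.8% of joint peaks in decile 5. A gap remained in the stronger deciles, with 88.7% of CTCF-only and 95.1% of joint peaks in decile 8 and 90.3% of CTCF-only and 95.5% of joint peaks in decile 10. The median score of the matches was 14.55 bits at CTCF-only, 16.32 at joint and 10.10 at RAD21-only sites.

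Strong CTCF-only peaks were at promoters more often than joint peaks of like strength. In the strongest decile of the CTCF list, 45.3% (40 to 50.7) of the 329 CTCF-only peaks lay within 1 kb of a TSS, against 14.9% of the 4024 joint peaks. In decile 9 the shares were 23.7% of CTCF-only and 7.84% of joint peaks. In the weakest decile the order was the other way round, with 7.27% of CTCF-only and 14.7% of joint peaks. Read from the other side, RAD21 was listed at 80.1% of the 747 CTCF peaks of the strongest decile that were at a TSS and at 95% of the 3606 that were not. Over all strengths these opposite differences nearly cancelled: 10.7% (10.3 to 11.1) of CTCF-only peaks and 9.73% (9.35 to 10.1) of joint CTCF peaks were at a TSS, where 2.44% of the genome lies.

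**Figure D3:**
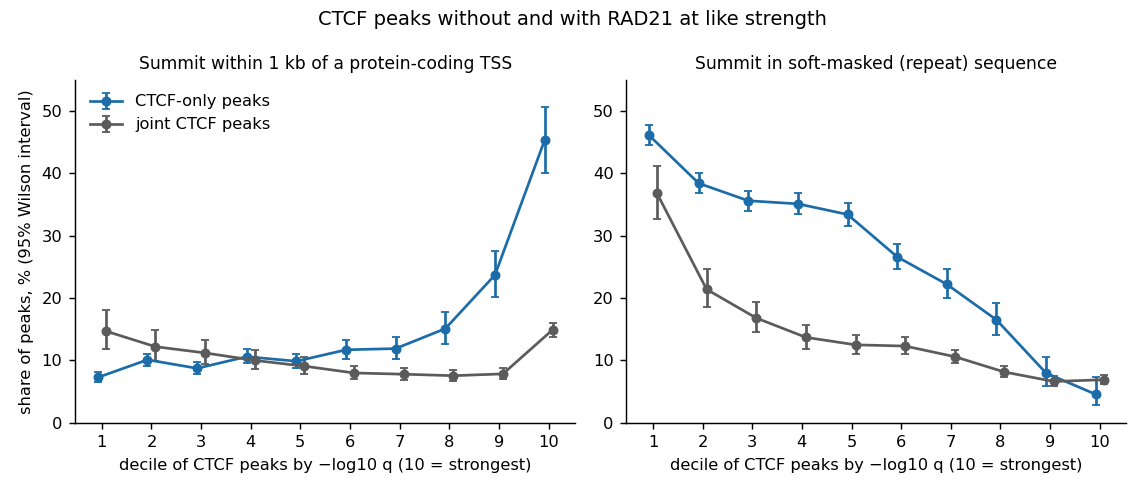
Share of CTCF-only and joint CTCF peaks (%, with 95% Wilson interval) whose summit lies within 1 kb of a protein-coding TSS (left) or in soft-masked repeat sequence (right), by decile of −log10 q in the CTCF list. In the strongest decile 45.3% of CTCF-only and 14.9% of joint peaks are at a TSS, and in decile 6 26.6% of CTCF-only and 12.3% of joint peaks are soft-masked.

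The 8 strongest CTCF-only peaks within 5 kb of a TSS were all within 1 kb of it. The peak of highest −log10 q was 293 bp before the TSS of Kifc1, a mitotic kinesin gene, at chr17:33890758-33891181, and had a −log10 q of 308 and 299 in distal and proximal forelimb, where SMC1 and RAD21 of distal forelimb had no peak. Ppif, the mitochondrial cyclophilin gene, had 188. Hnrnpdl, an RNA-binding protein gene, had 179.6 at 121 bp before its TSS. Psmd6, a proteasome subunit gene, had 171 at 30 bp before its TSS. Ocel1 (161), Kdm3b (154), Phrf1 (151) and Specc1 (149) completed the first 8. A CTCF motif was present at all of them but Kdm3b, a histone demethylase gene, and 7 of the 8 summits lay before the TSS. In distal forelimb, SMC1 was listed at 4 of the 8 (Ppif at 8.53, Psmd6 at 5.52, Ocel1 at 3.63 and Phrf1 at 3.31) and RAD21 at Ppif (3.28). None of the 8 was called in the RAD21 list of delHoxd(8-13)rXII limbs, a homozygous HoxD deletion profiled with the same antibody.

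CTCF-only sites recurred in other CTCF lists to varying degrees and rarely in other RAD21 lists. They overlapped a CTCF peak of wild-type CD1 distal forelimb in 84.7% and of proximal forelimb in 84.9%, against 98.7% and 98.8% of joint sites. Among the deletion lists, CTCF was found at 84.9% of CTCF-only and 98.3% of joint sites in delHoxd(8-13)d11lac, and at 68.3% of CTCF-only and 96.5% of joint sites in delHoxd(attP-rel5)d9lac. It was found at 64.5% of CTCF-only and 94.7% of joint sites in delHoxd(1-13)d9lac, and at 49.7% of CTCF-only and 89.7% of joint sites in delHoxd(8-13)rXII forelimbs. This last list, made by ChIPmentation, had the lowest median −log10 q of the CTCF lists (7.07). The parts of method and genotype cannot be told apart there. CTCF-only sites were the less often seen in each of the 6 lists, but these shares are not matched for strength. In the strongest decile, 100% of CTCF-only and 100% of joint peaks were in each CTCF list but that of delHoxd(8-13)rXII forelimbs. That list held 97.9% of CTCF-only and 99.9% of joint peaks of this decile. Over all strengths, CTCF-only sites overlapped RAD21 of distal forelimb in 1.28% and RAD21 of delHoxd(8-13)rXII whole limbs in 0.402%, against 67.7% and 64.8% of joint sites. In the strongest decile, 8.21% of CTCF-only and 87.3% of joint peaks had RAD21 in distal forelimb. SMC1 of distal forelimb differed from this: it was listed at 13.5% of all CTCF-only peaks and at 57.1% of those in the strongest decile, against 79.9% and 95.6% of joint peaks. The SMC1 list is longer (23185 peaks) than the RAD21 list of the same tissue (16498 peaks), and their depths are unknown.

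**Figure D4:**
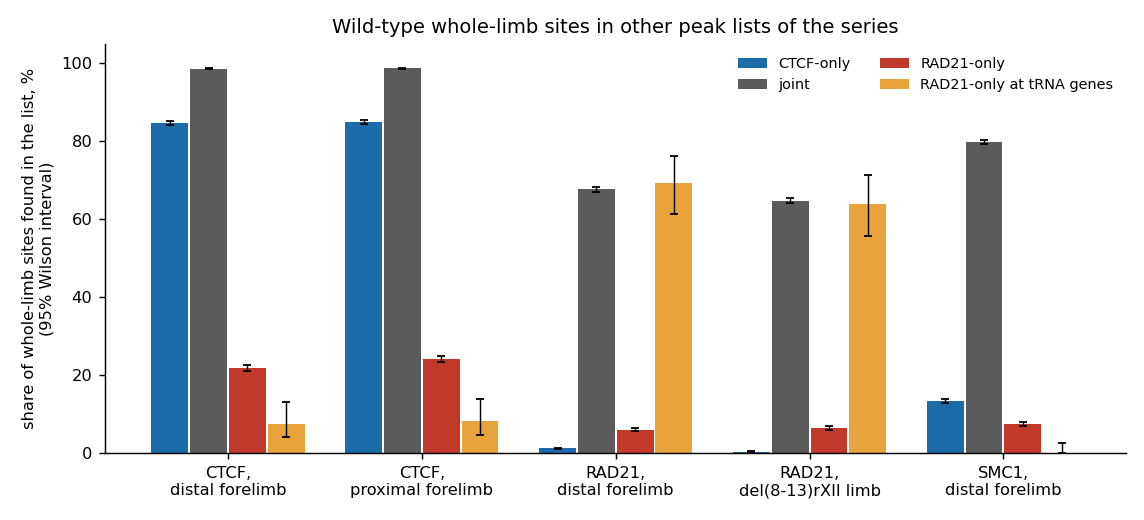
Share of wild-type whole-limb sites (%, with 95% Wilson interval) that overlap a peak in 5 other lists of the series, for CTCF-only, joint and RAD21-only sites and the 144 RAD21-only sites at tRNA genes. CTCF-only sites recur in the wild-type CTCF lists (84.7% and 84.9%), and the tRNA sites recur in both RAD21 lists (69.4% and 63.9%) and not in the SMC1 list (0%).

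Repeats held many of the CTCF-only sites of low and middle strength. Summits were soft-masked in 34.2% of CTCF-only peaks and 10.6% of joint CTCF peaks, where 36.4% of the genome is soft-masked. At like strength the gap stood from decile 1 to decile 8 (26.6% of CTCF-only and 12.3% of joint peaks in decile 6), and in the strongest decile the shares were 4.56% of CTCF-only and 6.91% of joint peaks. Many of these motifs were copies of the same letters, here shown as the 3 commonest 19-base matches at CTCF-only sites (1 autosome was left out of these counts).
match 1: GAGGCCAGAAGAGGGCATC
match 2: CACTCCAGAAGAGGGCGCC
match 3: GCAACCACATGGTGGCTCA
Match 1 stood at 226 CTCF-only sites and at 60 joint sites. Match 2 stood at 158 CTCF-only sites, 157 of them soft-masked, and match 3 at 125, with 122 soft-masked. Matches seen 5 times or more made up 21.2% of the 14627 CTCF-only matches, 2.59% of the 19466 joint matches and 8.82% of the 1633 RAD21-only matches. Mouse B2 elements, a family of short interspersed repeats, are known to carry CTCF motifs. With soft-masked summits left out of both lists, 56.6% of CTCF peaks had RAD21 and 73.3% of RAD21 peaks had CTCF.

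RAD21-only peaks at tRNA genes stood out by strength. A summit within 200 bp of 1 of the 403 RefSeq tRNA genes was found at 1 of 21119 CTCF-only peaks (0.00474%), at 12 of 22414 joint CTCF peaks (0.0535%) and at 144 of 11314 RAD21-only peaks (1.27%, 1.08 to 1.5), where 0.00705% of the genome lies. These 144 had a median −log10 q of 19.56, against 3.84 at the RAD21-only peaks elsewhere. Of the 300 strongest RAD21-only peaks 70 were at tRNA genes (23.3%, 18.9 to 28.4), and of the 300 strongest CTCF-only peaks none was, which allows a share of up to 1.00% at 3 counts (Wilson upper limit 1.26%). The tRNA annotation was set beside the peaks after the sequences of the strongest ones had been seen.

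RAD21-only peaks were found at tRNA genes of every amino acid listed. Counted by gene, 145 of the 403 (36.0%) had a RAD21-only summit within 200 bp, 15 a joint one and 1 a CTCF-only one, while 242 had none of these. The summit was inside the gene at 98 of the 144 sites, and its median position was 16.5 bp past the first base of a gene of 73 bp (quartiles −3 and 35). By amino acid, 15 of 24 arginine, 10 of 16 proline and 13 of 22 serine tRNA genes had a RAD21-only peak, and 4 of 57 cysteine and 4 of 25 leucine tRNA genes. The letters GTTCGANNC (both strands, within 100 bp of the summit) were present at 69.4% of the 144 tRNA sites, 0.716% of the other RAD21-only sites and 1.21% of control windows 2 kb on either side of the peaks. The 144 sites were chosen by their tRNA genes, which hold the B box, so this excess follows from the choice. The letters were not counted at tRNA genes without a peak. tRNA genes occur in near-identical copies, so reads inside them can be hard to place, and the part of this was not tested.

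The named tRNA sites showed the same pairing of lists. The peak at the valine tRNA gene n-TVaac8, 794 bp before Mynn, had a RAD21 −log10 q of 62.7 here and 20.1 in distal forelimb. The peak at the serine gene n-TSgct7, 310 bp before the kinetochore gene Knl1, had 58.9 here and 15.7 in distal forelimb. The peak at the arginine gene n-TRacg6, 188 bp before the arginine methyltransferase gene Prmt5, had 58.3 here and 23.6 in distal forelimb. All 3 were also in the RAD21 list of delHoxd(8-13)rXII limbs, and none was in any of the 7 CTCF lists or the SMC1 list. The arginine gene n-TRtcg5, 61 bp before the mitochondrial polymerase gene Polg, had 51.3 and the same pattern. The cysteine gene n-TCgca55 near Plxdc1 (53.0) differed, since CTCF was listed there in distal forelimb (10.2) and proximal forelimb (17.4). CTCF was also listed there in delHoxd(8-13)d11lac (70.7) and delHoxd(attP-rel5)d9lac limbs (2.63), and the site had a CTCF motif match.

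The peaks at tRNA genes recurred in RAD21 lists and not in the SMC1 list. Of the 144 sites, 100 (69.4%) were in the RAD21 list of distal forelimb, 92 (63.9%) in that of delHoxd(8-13)rXII limbs and 0 in the SMC1 list of distal forelimb, which allows a share of up to 2.08% at 3 counts (Wilson upper limit 2.60%). Among the 144 strongest RAD21-only peaks elsewhere, 99, 128 and 78 were in these 3 lists. Among all 11170 RAD21-only peaks elsewhere the shares were 5.30%, 5.77% and 7.72%. Neither set was matched in strength to the tRNA sites, whose median −log10 q was 19.56. CTCF was listed at 11 of the tRNA sites in distal forelimb and at 12 in proximal forelimb, against 113 and 113 of the other 144. The 3 RAD21 lists were made with 1 antibody and the SMC1 list with another after 25 min of fixation, and the part of fixation in this difference was not tested. Binding of RAD21 at tRNA genes and binding of the antibody to another protein there cannot be told apart with these lists. Of 8 other genes of RNA polymerase III or of small stable RNAs, Rmrp (29.35), Rny1 (11.34) and Rn7sk (6.26) had RAD21 without CTCF. The 7SL RNA genes Rn7s1 and Rn7s2 had both proteins (72.84 and 18.12 for CTCF, 17.64 and 21.13 for RAD21), and Rpph1, Rny3 and Bc1 had neither.

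Most other strong RAD21-only sites were CTCF sites in other lists. Of the 300 strongest, which had a −log10 q of 20.8 to 95.5, 119 were away from tRNA genes and had a CTCF motif, and 118 of these overlapped a CTCF peak in at least 1 of the other 6 CTCF lists. A further 93 had neither a tRNA gene nor a motif and still overlapped such a peak, and 18 had none of the 3. Summits were soft-masked at 42 of the 93 and at 6 of the 119. Lrig3, a leucine-rich repeat protein gene, had the strongest RAD21-only peak of the list 181177 bp before its TSS (95.5 for RAD21 here, 27.1 in distal forelimb, with CTCF at 44.6 in distal and 50.7 in proximal forelimb). The site 485030 bp past Plcl1, a phospholipase-like gene, had 90.8 here, 7.33 for RAD21 in distal forelimb and CTCF at 35.7 in distal and 56.4 in proximal forelimb. On the Y chromosome, the sites nearest to Gm29554 (94.2) and Zfy1 (70.0) were soft-masked and without a motif. Neither was in a CD1 forelimb list of CTCF, RAD21 or SMC1. At these sites CTCF was listed at 17.5 and 5.93 in delHoxd(8-13)d11lac limbs and at 19.9 and 15.7 in delHoxd(attP-rel5)d9lac limbs. CTCF of delHoxd(1-13)d9lac limbs and delHoxd(8-13)rXII forelimbs had no peak there. RAD21 of delHoxd(8-13)rXII limbs had 60.0 and 33.5. Near a gene start, Urad (56.3), an enzyme gene of uric acid breakdown, and Plk2 (53.7), a polo-like kinase gene, had CTCF at 29.7 and 31.3 in distal forelimb, while Klhl3 (58.6) had 11 without a motif match. Strains differ between these lists (B6CBAF1 in whole limb, CD1 in forelimb parts), and the part of strain and tissue was not tested. List length differs too. The CTCF lists of distal forelimb, proximal forelimb and delHoxd(8-13)d11lac limbs were longer (69495, 73682 and 61200 peaks) than the whole-limb list (43533). Those of delHoxd(1-13)d9lac, delHoxd(attP-rel5)d9lac and delHoxd(8-13)rXII were shorter (41588, 42957 and 36116), and the part of list length was not tested.

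**Figure D5:**
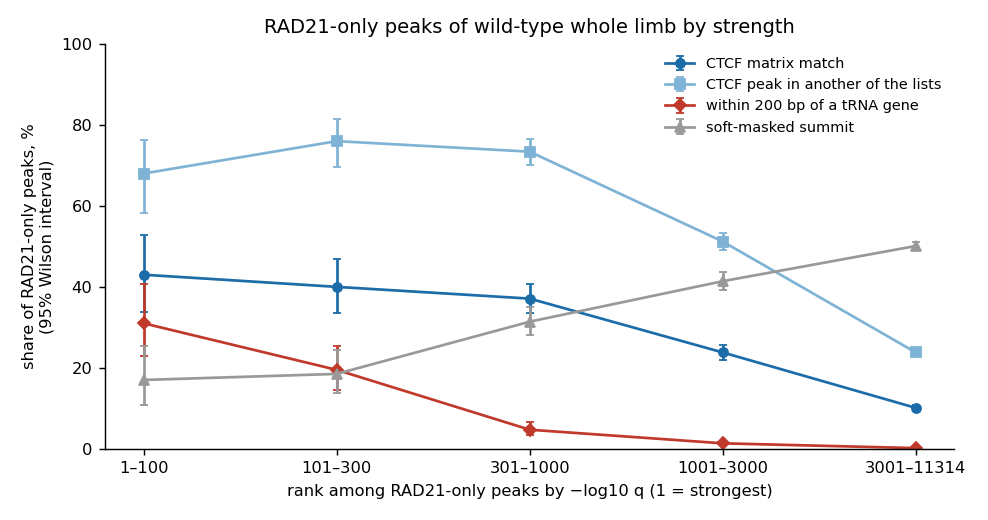
Share of RAD21-only peaks (%, with 95% Wilson interval) with a CTCF matrix match, with a CTCF peak in another of the lists, within 200 bp of a tRNA gene or with a soft-masked summit, by rank of −log10 q. From ranks 1 to 100 down to the last group, the tRNA share falls from 31.0% to 0.168% and the soft-masked share climbs from 17.0% to 50.1%.

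The remaining RAD21-only peaks were weaker and more often in soft-masked sequence. Below rank 3000, where the −log10 q was at most 6.01, 10.1% of 8314 peaks had a motif match, 23.8% overlapped CTCF in another list and 50.1% were soft-masked. Outside the 300 strongest, 4.44% of RAD21-only peaks were in the RAD21 list of distal forelimb and 4.45% in that of delHoxd(8-13)rXII limbs. A summit within 1 kb of a TSS was found at 10.7% of CTCF-only, 9.73% of joint CTCF and 13.4% (12.8 to 14.1) of RAD21-only peaks. Among peaks that reach a −log10 q of 10 in each list, the shares were 14.2% of CTCF-only, 8.15% of joint CTCF and 9.57% of RAD21-only peaks. That RAD21-only set also holds RAD21 peaks over weaker CTCF peaks. At like RAD21 strength, decile 1 had 11.6% of RAD21-only and 25.2% of joint RAD21 peaks at a TSS. In decile 3 the shares were 15.7% of RAD21-only and 20.5% of joint RAD21 peaks. The RAD21-only share was also the lower in deciles 2, 6 and 10, and the higher in deciles 4, 5, 7, 8 and 9.

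At promoters the classes sat at different places. The median position of the summit relative to the TSS was −35 bp at 2265 CTCF-only promoter peaks, −62 bp at 2182 joint CTCF peaks and 58 bp at 1521 RAD21-only peaks (quartiles −55 and 285). The summit lay before the TSS at 56.3% of CTCF-only, 63.4% of joint CTCF and 36.6% of RAD21-only promoter peaks. Windows rich in CpG made up 40.4% of CTCF-only, 41.5% of joint CTCF and 60.0% of RAD21-only promoter peaks. By their RAD21 summits, the 2189 joint RAD21 promoter peaks had a median of −50 bp, with 61.7% before the TSS and 43.5% rich in CpG. The classes were not matched for strength here. Of 15 short motifs searched on both strands within 100 bp of the summit, CCGGAA (the ETS core) was at 11.6% of CTCF-only, 11% of joint CTCF and 12.8% of RAD21-only promoter peaks, and at 13.9% of all protein-coding TSS. TGTGGT, the core bound by RUNX factors, was at 12.0% of CTCF-only, 9.76% of joint CTCF and 6.71% of RAD21-only promoter peaks, and at 10.1% of all TSS. AGATAA, the core bound by GATA factors, was at 4.33%, 4.72% and 1.78% in the same order, and at 5.42% of all TSS. Both were the least frequent at RAD21-only promoter peaks, which were also the richest in CpG, and the part of base composition was not tested.

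Away from promoters, introns and intergenic sequence held most sites of every class. Introns held 44.4% of CTCF-only, 40.4% of joint CTCF and 34.9% of RAD21-only summits, where 40% of the genome lies. Intergenic sequence held 38.3% of CTCF-only, 43.1% of joint CTCF and 47.2% of RAD21-only summits, where 53.4% of the genome lies. Coding exons held 1.98% of CTCF-only, 1.73% of joint and 1.44% of RAD21-only summits, and UTRs 1.62%, 2.11% and 0.725% in the same order.

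Of the 21829 protein-coding genes, 10.6% had a CTCF-only peak within 1 kb of a TSS, 10.2% a joint peak and 7.05% a RAD21-only peak. Within 10 kb the shares were 32.9%, 33.5% and 14.0%. Most genes with a peak at the start had 1 class alone: 2019 had CTCF-only peaks, 1931 joint peaks and 1291 RAD21-only peaks, while 16180 had none and the rest a mixture.

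Ribosomal protein genes had CTCF-only starts more often than joint or RAD21-only ones. Of 80 genes of the cytosolic ribosome, 21 (26.2%) had a CTCF-only peak within 1 kb, 9 (11.2%) a joint one and 2 (2.50%) a RAD21-only one. The shares over all genes were 10.6%, 10.2% and 7.05%. Strong CTCF-only peaks stood at Rpl5 (126), Rpl26 (77.2) and Rps14 (75.7). Rpl36 was joint, with 127 for CTCF and 6.99 for RAD21, and so was Rpl10a, with 94.3 for CTCF and 57.6 for RAD21. Of 20 other housekeeping genes, 3 had a CTCF-only peak (Actb at 103, Rplp0 at 75.6 and Vcp), 0 a joint one and 2 a RAD21-only one (Sdha 4.24, Ywhaz 3.32). Rplp0 is itself a ribosomal protein gene.

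Of 31 distal limb genes, 3 (9.68%) had a CTCF-only peak within 1 kb, 7 (22.6%) a joint one and 2 (6.45%) a RAD21-only one, where the shares over all genes were 10.6%, 10.2% and 7.05%. Within 10 kb the counts were 13, 18 and 5, where the shares over all genes were 32.9%, 33.5% and 14.0%. The joint starts included Wnt7a, the dorsalising signal of the ectoderm (81.8 for CTCF, 67.1 for RAD21), Gli1, a target and effector of hedgehog signalling (74.9 for CTCF, 7.78 for RAD21), Jag1, a Notch ligand gene (60.3 for CTCF, 104 for RAD21), and Fgf4, a growth factor of the apical ridge (41.2 for CTCF, 6.17 for RAD21). The CTCF-only starts were Tbx2 (11.9), Ptch1 (3.18), the hedgehog receptor, and Fgf10 (2.07), the mesenchymal growth factor that starts limb outgrowth. The RAD21-only starts were Gli3 (6.84), the hedgehog-responsive repressor gene, and Wnt5a (4.09). The peak of Shh within 10 kb was joint, with 18.7 for CTCF and 30.7 for RAD21.

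The other limb lists gave small counts. Over all genes, the CTCF-only, joint and RAD21-only shares were 10.6%, 10.2% and 7.05% within 1 kb. Within 10 kb they were 32.9%, 33.5% and 14.0%. Of 15 proximal limb genes, 0 had a CTCF-only start, 2 a joint one (Tbx18 and the retinoic acid enzyme gene Aldh1a2) and 3 a RAD21-only one (among them the retinoic acid receptor gene Rarb at 16.4 and Pbx3 at 3.18). Of 10 genes of forelimb and hindlimb identity, 2 had a joint start, among them Hoxc10 (79.4 for CTCF, 79.6 for RAD21), and 0 had another class. Of 21 genes of cartilage and joints, 0 had a CTCF-only start, 4 a joint one and 3 a RAD21-only one. Gdf5, the joint-forming growth factor gene, was joint (78.8 for CTCF, 127 for RAD21), while Sox9, a transcription factor gene needed for cartilage, was RAD21-only (4.70). Within 10 kb, 11 of these 21 had a CTCF-only peak, 16 a joint one and 5 a RAD21-only one. Of 14 mesenchyme genes, 2 had a CTCF-only start, 5 a joint one and 2 a RAD21-only one. Col1a1, the type I collagen gene, had 41.3 for CTCF and 147 for RAD21, and Pdgfra had both a CTCF-only (72.3) and a joint peak (31.2 for CTCF, 24.9 for RAD21). Within 10 kb, in the order CTCF-only, joint and RAD21-only, the counts were 2, 9 and 7 of the 15 proximal limb genes. They were 4, 6 and 1 of the 10 identity genes and 8, 11 and 3 of the 14 mesenchyme genes.

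Of 15 genes of the cohesin and CTCF machinery, 0 had a CTCF-only peak within 1 kb, 6 (40%) a joint one and 3 (20%) a RAD21-only one, against 10.6%, 10.2% and 7.05% of all genes. Esco1, a cohesin acetyltransferase gene, had 125 for CTCF and 3.83 for RAD21. Pds5b, a regulator of cohesin release, had 66.4 for CTCF and 97.8 for RAD21, and Stag1, a cohesin subunit gene, had 46.4 for CTCF and 47.5 for RAD21. Of 18 immediate early genes, 5 had a CTCF-only start, 4 a joint one and 2 a RAD21-only one. Egr1 was joint (69.5 for CTCF, 42.8 for RAD21) and Klf6 RAD21-only (12.2). Of 18 imprinted genes matched out of 22, 4 had a CTCF-only start, 4 a joint one and 2 a RAD21-only one.

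Genes of other cell types in the limb were counted in the same way, against 10.6%, 10.2% and 7.05% of all genes. In the order CTCF-only, joint and RAD21-only, muscle genes had peaks at 2, 0 and 1 of 16 starts. Endothelial genes had 1, 2 and 0 of 12, and blood genes 0, 1 and 1 of 12. Neural and Schwann genes had 2, 2 and 1 of 12, and ectoderm genes 1, 1 and 1 of 13. No list's share was tested against that over all genes.

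The HoxD locus on chromosome 2, between Lnpk and Mtx2 (chr2:74520291-74878431), held all 3 classes. From the Evx2 end to Hoxd3 there were 7 joint sites, 3 of them around Evx2. The 3 at Evx2 had 22.3, 11.9 and 34.7 for CTCF and 9.52, 89.6 and 67.6 for RAD21, so the site of weakest CTCF had the strongest RAD21. The joint site between Hoxd13 and Hoxd12, 1869 bp before the Hoxd12 start, had 54.1 for CTCF and 41.7 for RAD21. The site at the start of Hoxd10 had 12.4 for CTCF and 49.6 for RAD21, without a motif match. The site 2203 bp from the Hoxd8 start had 60.4 for CTCF and 46.3 for RAD21, and the one in Hoxd3 and Hoxd4 53.4 for CTCF and 159 for RAD21. The CTCF motif ran on the minus strand at Hoxd12 and at the Evx2 sites that had a match, and on the plus strand at the Hoxd8 and Hoxd3 sites.

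CTCF without RAD21 stood in the middle of the cluster. The CTCF-only peak at Hoxd11, in an exon outside coding and UTR sequence where Hoxd11 and Gm28309 overlap, had a −log10 q of 56.8. It had 182 and 165 in distal and proximal forelimb, where RAD21 of distal forelimb had no peak and SMC1 had 3.47. The CTCF-only peak in the coding exon of Hoxd10 had 34.4, and 115 and 149 in the 2 forelimb parts, with neither cohesin subunit listed. Their motifs, with the match in capitals and read on the motif strand, are shown beside that of the joint Hoxd8 site. They lie at chr2:74686466-74686514 (plus strand), chr2:74694206-74694254 (minus strand) and chr2:74702381-74702429 (plus strand).
Hoxd11, CTCF-only: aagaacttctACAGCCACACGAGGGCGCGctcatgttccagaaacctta
Hoxd10, CTCF-only: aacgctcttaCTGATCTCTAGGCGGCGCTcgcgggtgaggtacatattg
Hoxd8, joint: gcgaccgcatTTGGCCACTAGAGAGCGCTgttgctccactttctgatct
The match scores were 13.12, 10.94 and 14.28 bits, so the CTCF-only pair were not without a motif. RAD21 without CTCF was listed at the starts of Hoxd9 (6.25) and Lnpk (11.3), and the Lnpk start also had a weak CTCF-only peak (2.07) beside it. Of 14 genes listed in and around the locus, 2 had a CTCF-only peak within 1 kb of a TSS (Lnpk, and Hnrnpa3 beyond Mtx2), 1 a joint one and 2 a RAD21-only one. Of 14 genes at the HoxA cluster, the paralogous locus, 2, 2 and 0 did, in the same order, and the shares over all genes were 10.6%, 10.2% and 7.05%. There Hoxa10 had a CTCF-only start (76.5), and Hoxa7 (119 for CTCF, 145 for RAD21) and Hoxa5 (77.6 for CTCF, 65.7 for RAD21) had joint ones.

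The classes were spread over all chromosomes. RAD21 was listed at 43.8% to 56.5% of CTCF peaks on the autosomes, at 45.5% on X and at 18.3% of the 82 on Y. Peaks were sparser on X, with 7.30 CTCF and 6.57 RAD21 peaks per Mb, than on any autosome, where the lowest densities were 13.4 CTCF and 11.5 RAD21 peaks per Mb. Peaks of several summits made up 0.384% of CTCF-only, 1.32% of joint CTCF and 6.45% of RAD21-only peaks.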

How the data were processed

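ChIP-seq with 50-base single-end reads was processed with cutadapt, Bowtie2 (mm10) and MACS2, per the submitters' processing notes, whose versions are not given in the sources used here. The authors deposited 1 narrowPeak list per library with, for each peak, a fold enrichment, the −log10 p and −log10 q values, the offset of the summit, and a whole-number score that is 10 times the −log10 q. A control library and the read depth are not given in the sources used here, so strength was ranked within a list. 0 columns of other samples were set aside.

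Rows of 1 peak with several summits were merged and chromosomes 1 to 19, X and Y kept (21 chromosomes). CTCF and RAD21 peaks that share 1 bp formed joint sites. Summits were annotated with GENCODE M21 on GRCm38.p6. A CTCF matrix of 19 bp was trained on 2000 proximal forelimb summits, and 403 RefSeq tRNA genes were used. A window was called rich in CpG at a GC content over 55% and an observed to expected CpG ratio over 0.65. Named peaks were the 8 of highest −log10 q within 5 kb of a TSS and the 5 over 50 kb away, per class. The overlap, distance and motif steps were tested on simulated data. Members and lists were chosen with earlier results of these data known, and the tRNA comparison, its letters, the rank groups and the added alternatives after seeing the data. Python 3.11.15, numpy 2.4.6, pandas 2.3.3 and scipy 1.17.1 were used. Values of some listed genes are not reported here.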

Additional observations from a re-analysis of the deposited data

How the results depend on the processing

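With 1 library per protein no replicate could be left out, and no paired analysis was possible because each group had 1 library and no replicate numbers. Of 58 alternatives, 23 left a value within its counting interval and 35 moved it beyond. The order of the shares at a TSS, CTCF-only below RAD21-only, turned round at a −log10 q of at least 10. The main shares were 51.5% of CTCF peaks with RAD21 and 66.4% of RAD21 peaks with CTCF. They became 58.8% and 86.0% at a −log10 q of at least 10, 50.3% and 65.1% when 50% of the peak had to be covered, 50.9% and 65.7% for summits within 200 bp, 62.3% and 62.3% with lists of equal length, and 56.6% and 73.3% without soft-masked summits. On autosomes 67.2% of RAD21 peaks had CTCF. The share at a TSS was 10.7% of CTCF-only and 13.4% of RAD21-only peaks. It was 14.2% of CTCF-only and 9.57% of RAD21-only peaks at a −log10 q of at least 10 (8.15% of joint CTCF peaks), 17.0% and 18.1% with the TSS of all genes, and 7.61% and 10.7% within 500 bp. It was 12.0% of CTCF-only peaks with lists of equal length. For RAD21-only peaks it was 14.1% on autosomes, 12.2% with no CTCF peak within 1 kb and 14.2% with no overlap with the 3 wild-type CTCF lists. The share with a CTCF motif was 72.1% of CTCF-only, 87.8% of joint CTCF and 14.0% of RAD21-only peaks for matches within 100 bp. It was 54.9%, 76.5% and 6.25% at the level of 1% of control windows, and 87.7%, 93.9% and 56.0% at a −log10 q of at least 10. It was 67.5% of CTCF-only peaks outside the distal forelimb RAD21 and SMC1 lists, and 7.08% of RAD21-only peaks outside the 3 wild-type CTCF lists. RAD21-only peaks at tRNA genes made up 4.15% at a −log10 q of at least 10 and 1.63% outside those 3 lists. The cause of these shifts was not tested beyond the changed sets of peaks.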
